A study of Mus musculus with 4 samples.

Results

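The potassium channel genes were taken as genes whose symbol is Kcn, then lower-case letters, then digits. This gave 88 of the 21832 genes compared, and 1 further gene with such a symbol was left out by the rule. The 88 genes fall into 20 subfamilies by the letters of the symbol, and all had a valid estimate in all 4 libraries. They were followed across 2 fractions of the mouse retina at postnatal day 12, separated by flow cytometry with an antibody to Cd73, an ectoenzyme that marks rods and rod precursors and is the product of Nt5e. The Cd73-positive cells (Cd73P) and the Cd73-negative cells (Cd73N), which include cones, bipolar cells, Müller glia and other retinal cells, came from wild-type retina and from retina labelled Ezh2-cKO. In the latter, floxed Ezh2, a Polycomb histone methyltransferase gene, was crossed to a Dkk3-driven Cre that acts in retinal progenitors. Controls were normal littermates, and all mice were on the slc:ICR background. How many retinas went into a library is not given in the sources used here. Each of the 4 groups was 1 library, so that differences could not be set against a spread between replicates and no test was made.

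Potassium channels set the resting potential of retinal cells and shape the response to light. In the classical scheme, voltage-gated (Kv) pore-forming subunits assemble as tetramers, electrically silent Kv subunits form no channel alone but modify Kv partners, and auxiliary subunits change trafficking or gating. Inward rectifiers and tandem-pore (two-pore-domain) leak channels hold the membrane near rest, and calcium- or sodium-activated channels couple it to internal ions. In photoreceptors the silent subunit encoded by Kcnv2 takes part in the outward current known as IKx, and loss of human KCNV2 gives a cone dystrophy with altered rod responses.

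Expression was measured as FPKM, the fragment count of a gene scaled to its exon length and to the mapped total of the library, so that levels of different genes are per length and can be set side by side. Differences are given on the log2(FPKM + 1) scale, which understates them for genes of low level. A gene was counted as higher or lower past a 1.5-fold difference on that scale. Each standard error (SE) covers counting error within a library only, and it was read from the bounds deposited with each FPKM.

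The fraction labels were checked first. In Cd73N, Nt5e stood at 0.844 FPKM (wild type) and 0.609 FPKM (labelled Ezh2-cKO), and in Cd73P at 125 and 123 FPKM. Ezh2 was at 14.1 FPKM in wild-type and 15.9 FPKM in Cd73N labelled Ezh2-cKO, and at 5.38 and 3.45 FPKM in Cd73P, so the Cd73N level went against the label and the term "library labelled Ezh2-cKO" is used throughout. Loss of the floxed exon itself cannot be read from a gene-level FPKM. Xist was higher in both libraries labelled Ezh2-cKO, at 240 against 52.2 FPKM in Cd73N and 95.6 against 47.0 FPKM in Cd73P, and Eif2s3y on chromosome Y was listed at 0 in both against 11.3 and 13.1 FPKM in wild type. The sex of the animals and the genotype cannot be told apart here. All 12 rod markers compared were higher in Cd73P in each genotype, while all 9 cone and all 10 Müller glia markers were lower. So were 9 of 10 bipolar and all 6 microglia markers. The amacrine, ganglion cell and vascular lists were mixed, each with 1 marker higher in Cd73P in each genotype and others lower. The summed FPKM of the Müller glia markers was 5.11 times the wild-type sum in the Cd73N library labelled Ezh2-cKO and 2.07 times in Cd73P, and that of the 10 bipolar markers was 0.57 and 0.324 times. In bulk fractions, fewer cells of a type and less RNA per cell cannot be told apart.

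Promoter sequence was read for members with an entry in a RefSeq table on build GRCm38.p6, which was matched by symbol for 66 of the 88 genes. The window ran from 250 bases before to 50 bases after the start. It was searched for TAATCC on either strand (GGATTA on the other), the core letters of the site bound by the photoreceptor homeodomain factor Crx. Of the 66 genes, 2 held it (3.03%), against 8.14% of 27025 genes in the table. Of the named members described below, 20 had an entry and the same 2 held it (10%). Both, Kcng4 and Kcnj9, were members of higher level in Cd73N (below). Kcne2, the member of highest level in Cd73N, held no match in this window. Kcnv2 and Kcnj14 had no entry. The first 260 bases of the windows of these genes are shown to let the position of the letters be compared, 5′ to 3′ on the strand of the gene, with the motif in capitals. They lie at chr8:119635671-119635930 (minus strand) for Kcng4, at chr1:172329313-172329572 (minus strand) for Kcnj9 and at chr16:92292139-92292398 (plus strand) for the first of 2 starts of Kcne2.
Kcng4: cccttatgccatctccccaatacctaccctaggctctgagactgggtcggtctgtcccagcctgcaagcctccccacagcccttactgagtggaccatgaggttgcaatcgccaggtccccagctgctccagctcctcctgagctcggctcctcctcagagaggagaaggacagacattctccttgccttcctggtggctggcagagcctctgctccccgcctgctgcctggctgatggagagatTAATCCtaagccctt
Kcnj9: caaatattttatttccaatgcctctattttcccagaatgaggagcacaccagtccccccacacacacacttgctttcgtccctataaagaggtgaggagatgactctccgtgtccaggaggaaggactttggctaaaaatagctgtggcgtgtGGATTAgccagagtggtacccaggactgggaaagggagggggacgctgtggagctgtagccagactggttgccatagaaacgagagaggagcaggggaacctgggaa
Kcne2: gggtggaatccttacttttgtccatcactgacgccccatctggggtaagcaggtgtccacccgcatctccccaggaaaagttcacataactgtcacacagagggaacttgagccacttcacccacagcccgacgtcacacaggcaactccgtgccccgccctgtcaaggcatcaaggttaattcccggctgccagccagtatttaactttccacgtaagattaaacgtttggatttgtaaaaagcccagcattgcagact
In Kcng4 the letters began at position -5 from the start and ran across it, and in Kcnj9 they began at -97. A match is a description of the letters only.

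Most potassium channel genes were near the lower end of the range. FPKM of at least 1 was found for 37 members in wild-type Cd73N and 39 in the Cd73N library labelled Ezh2-cKO, but for 17 and 10 members in the Cd73P libraries. As a share of the 88 genes these were 42.0%, 44.3%, 19.3% and 11.4%, beside 55.7%, 58.2%, 47.9% and 47.3% of all genes in the same order. A total of 23 members reached 5 FPKM in some library. Another 2, Kcng1 and Kcnmb2, are named for a difference of at least 2-fold between genotypes, and together these 25 carry the description that follows. Of the rest, 15 peaked between 1.09 and 4.89 FPKM and 48 stayed below 1 FPKM in all 4 libraries, the highest value among them being 0.895. Kcnk16 and Kcnk18, which encode tandem-pore channels, were listed at 0 in all 4 libraries.

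**Figure D1:**
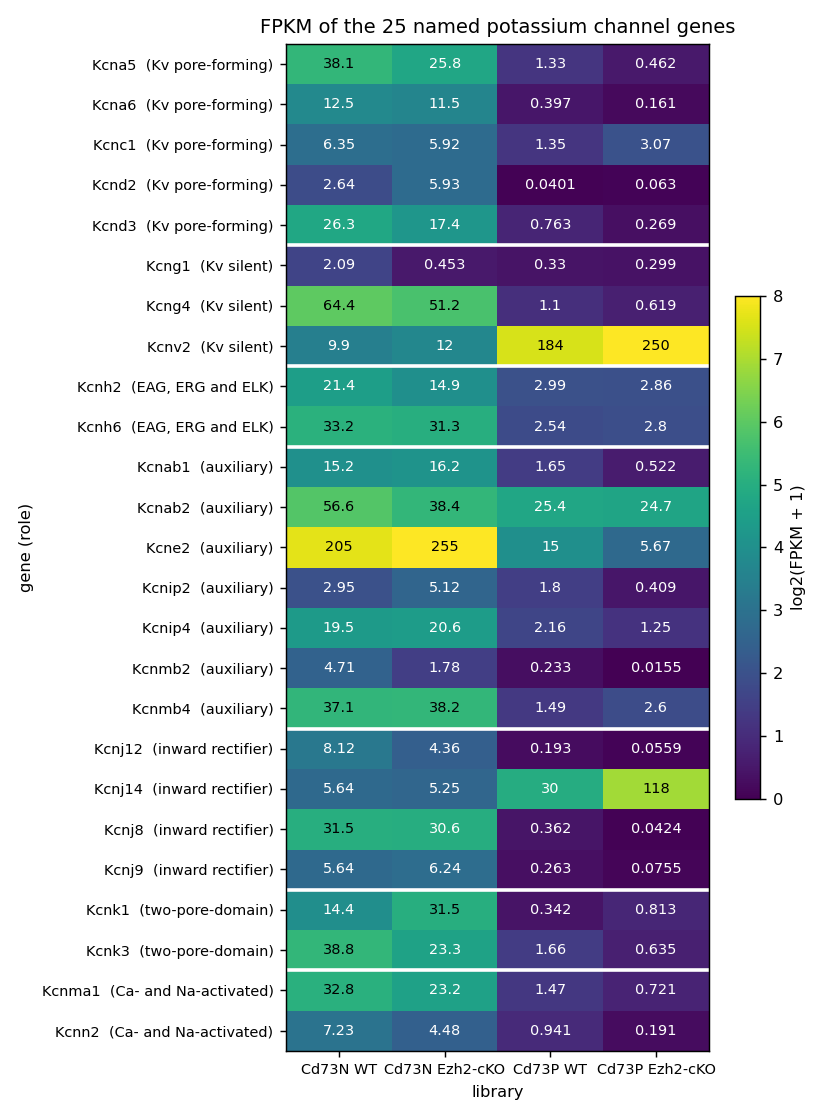
FPKM of the 25 named potassium channel genes (rows, grouped by role) in the 4 libraries (columns), coloured by log2(FPKM + 1) with the FPKM printed in each cell. Kcnv2 and Kcnj14 are brightest in the Cd73P columns, and Kcne2 stands at 205 and 255 FPKM in the Cd73N columns.

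The roles differed in how many of their genes were expressed. At least 1 FPKM in some library was reached by 11 of 15 auxiliary genes, 10 of 15 Kv pore-forming genes and 4 of 10 silent Kv genes. Among the inward rectifiers 6 of 14 did so, but among the tandem-pore genes only 2 of 14. The calcium- and sodium-activated class and the class of EAG, ERG and ELK channels had 3 of 8 each, and the KCNQ class 1 of 4. Members lower in Cd73P were most often of the same classes. For auxiliary genes they were 10 of 15 in wild type and 12 of 15 under the Ezh2-cKO label. For Kv pore-forming genes they were 10 and 9 of 15, beside 27.9% and 29.1% of all genes. A gene very low in both libraries cannot pass on this scale, so classes with more expressed genes can give more such members. Of members with at least 1 FPKM in 1 of the 2 libraries, 33 of 37 were lower in wild type, beside 45.9% of all genes so filtered. Under the Ezh2-cKO label they were 35 of 39, beside 45.6%. All 37 and all 39 members reached 1 FPKM in Cd73N, the fraction where most were higher. Passing the filter thus favours a lower value in Cd73P, and nothing is concluded from these shares.

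The first comparison asked which potassium channel genes separated rods from the remaining cells. In wild type, 2 of 88 members (2.27%) were higher in Cd73P, where 9.07% of all genes were, and 36 (40.9%) were lower, where 27.9% of all genes were. In the libraries labelled Ezh2-cKO, 2 members were higher beside 8.4% of all genes, and 39 (44.3%) were lower beside 29.1%. The 2 higher genes were Kcnv2 and Kcnj14 in both genotypes, and 34 members were lower in both, a count not taken over all genes. With median scaling, and also when libraries were scaled to 1 FPKM sum, Kcnn1 joined them, giving 3 higher genes in both genotypes. The median log2 ratio of Cd73P over Cd73N was -0.40 for the members and -0.05 for all genes in wild type, and under the Ezh2-cKO label it was -0.42 and -0.09. The 48 members below 1 FPKM in all libraries gave 3 of the 36 and 4 of the 39 lower genes, and none of the higher ones.

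Kcnv2 (chromosome 19, 27397109 to 27411669 on mm9) was higher in Cd73P in both genotypes. There it reached 184 FPKM in wild type and 250 FPKM under the Ezh2-cKO label, against 9.90 and 12.0 FPKM in Cd73N (paired values are given throughout as wild type, then the library labelled Ezh2-cKO). The log2 ratios of the fractions were 4.08 (SE 0.036) and 4.27 (SE 0.034). The lowest Cd73P value of Kcnv2 was thus many times its highest Cd73N value. Kcnv1, of the same subfamily, was below 1 FPKM throughout. Kcnb2, a pore-forming Kv subunit, was at 4.13 and 2.71 FPKM in Cd73N and at 0.213 and 0.0206 FPKM in Cd73P.

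Kcnj14 (chromosome 7, 53071837 to 53080117), an inward rectifier, was the other member higher in Cd73P. Its levels were 5.64 and 5.25 FPKM in Cd73N, 30.0 FPKM in wild-type Cd73P and 118 FPKM in the Cd73P library labelled Ezh2-cKO. The log2 ratio of the fractions was therefore 2.22 (SE 0.070) for wild type and 4.25 (SE 0.063) under the Ezh2-cKO label. No other inward rectifier was higher in Cd73P past the threshold. Kcnj8, the pore of the vascular ATP-sensitive channel, was at 31.5 and 30.6 FPKM in Cd73N but at 0.362 and 0.0424 FPKM in Cd73P. Kcnj9, a G protein-gated subunit whose promoter window is shown above, went from 5.64 and 6.24 FPKM in Cd73N to 0.263 and 0.0755 FPKM in Cd73P, and Kcnj12 from 8.12 and 4.36 FPKM to 0.193 and 0.0559 FPKM.

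**Figure D2:**
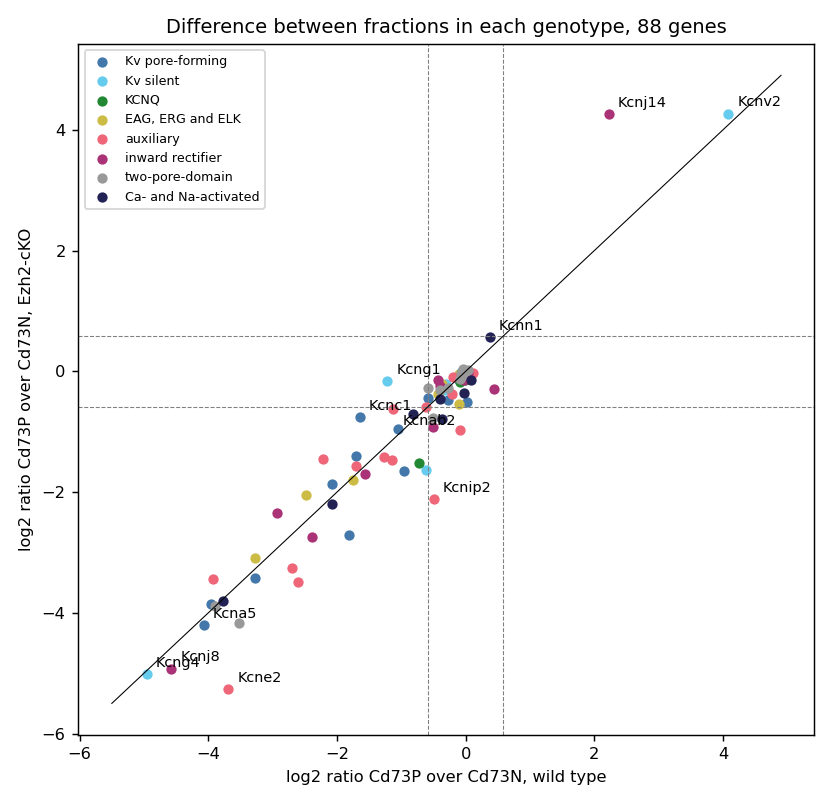
Log2 ratio of Cd73P over Cd73N on the log2(FPKM + 1) scale in wild type (x axis) and in the libraries labelled Ezh2-cKO (y axis) for the 88 potassium channel genes, coloured by role; the solid line marks equal ratios and the dashed lines the 1.5-fold threshold. Kcnv2 and Kcnj14 lie alone at the upper right, Kcnj14 well above the line, and Kcne2 lies below it.

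Among the Kv pore-forming subunits of the Shaker subfamily, Kcna5 and Kcna6 led in Cd73N. Kcna5 was at 38.1 and 25.8 FPKM in Cd73N and at 1.33 and 0.462 FPKM in Cd73P, with log2 ratios of -4.07 (SE 0.079) and -4.20 (SE 0.065). Kcna6 was at 12.5 and 11.5 FPKM in Cd73N and at 0.397 and 0.161 FPKM in Cd73P. Both lie on chromosome 6, Kcna5 at 126482569 to 126485573 and Kcna6 at 126658347 to 126690692. Kcnc1, of the Shaw subfamily, whose channels serve fast repolarisation, was at 6.35 and 5.92 FPKM in Cd73N and at 1.35 and 3.07 FPKM in Cd73P. The A-type subunit Kcnd3 was almost absent from Cd73P, with 26.3 and 17.4 FPKM in Cd73N and 0.763 and 0.269 FPKM in Cd73P. Kcnd2, of the same subfamily, was at 2.64 and 5.93 FPKM in Cd73N and at 0.0401 and 0.063 FPKM in Cd73P.

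Auxiliary and silent subunits gave the highest levels in Cd73N. Kcne2 (chromosome 16, 92292634 to 92298378), a single-pass subunit that joins several voltage-gated pores, was at 205 and 255 FPKM in Cd73N and at 15.0 and 5.67 FPKM in Cd73P. Its log2 ratios of the fractions were -3.69 (SE 0.059) and -5.26 (SE 0.068). Kcng4 (chromosome 8, 122147754 to 122159580), a silent subunit, was at 64.4 and 51.2 FPKM in Cd73N and at 1.10 and 0.619 FPKM in Cd73P, with log2 ratios of -4.96 (SE 0.067) and -5.01 (SE 0.058). The silent subunits were thus split between the fractions, Kcnv2 being higher in Cd73P and Kcng4 in Cd73N. The cytoplasmic beta subunit Kcnab2 was an auxiliary gene with much of its level in both fractions, at 56.6 and 38.4 FPKM in Cd73N and 25.4 and 24.7 FPKM in Cd73P. Kcnab1 was at 15.2 and 16.2 FPKM in Cd73N and 1.65 and 0.522 FPKM in Cd73P. Of the calcium-binding partners of A-type channels, Kcnip4 was at 19.5 and 20.6 FPKM in Cd73N and 2.16 and 1.25 FPKM in Cd73P. Kcnip2 was at 2.95 and 5.12 FPKM in Cd73N and 1.80 and 0.409 FPKM in Cd73P, and its wild-type log2 ratio of -0.50 (SE 0.209) did not pass the threshold.

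The large-conductance calcium-activated channel was represented by its pore Kcnma1, at 32.8 and 23.2 FPKM in Cd73N and 1.47 and 0.721 FPKM in Cd73P. Its neuronal beta subunit Kcnmb4 had a like level in Cd73N, 37.1 and 38.2 FPKM, and was at 1.49 and 2.60 FPKM in Cd73P. The inactivating beta subunit Kcnmb2 was at 4.71 and 1.78 FPKM in Cd73N and 0.233 and 0.0155 FPKM in Cd73P. Pore and beta subunits were therefore lower in Cd73P alike. Kcnn2, a small-conductance calcium-activated channel, was at 7.23 and 4.48 FPKM in Cd73N and 0.941 and 0.191 FPKM in Cd73P. Its relative Kcnn1 was at 3.56 and 2.66 FPKM in Cd73N and 4.89 and 4.42 FPKM in Cd73P, and its log2 ratios of 0.37 (SE 0.082) and 0.56 (SE 0.081) stayed under the threshold. After median scaling they were 0.62 and 0.78, and after scaling by the FPKM sum 0.70 and 0.74, past it.

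The remaining named members were lower in Cd73P as well. The tandem-pore leak channels Kcnk3, at 38.8 and 23.3 FPKM, and Kcnk1, at 14.4 and 31.5 FPKM, were the 2 of 14 in their class that reached 1 FPKM in any library. Their Cd73P levels were 1.66 and 0.635 FPKM for Kcnk3 and 0.342 and 0.813 FPKM for Kcnk1. The ERG channels Kcnh6 and Kcnh2 were at 33.2 and 31.3 FPKM and at 21.4 and 14.9 FPKM in Cd73N, and all 4 of their Cd73P values lay between 2.54 and 2.99 FPKM. Across the 88 genes the log2 ratios of the fractions in the 2 genotypes had a Pearson r of 0.955, which is a description across genes that share their length and annotation in both genotypes and are not independent replicates.

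The Cd73P level of members that were higher in Cd73N was next expressed as a percentage of the Cd73N level, for the 22 named members with at least 1 FPKM in both Cd73N libraries and a lower value in Cd73P in both genotypes. The median was 4.57% in wild type (range 1.15% to 60.9%), and 2.66% under the Ezh2-cKO label (range 0.138% to 64.3%). The percentage was smaller in the libraries labelled Ezh2-cKO for 16 members and larger for 6, namely Kcnk1, Kcnmb4, Kcnh6, Kcnh2, Kcnc1 and Kcnab2. This count was not taken over all genes, so it has no background beside it. The median log2 ratio of Cd73P over Cd73N for all genes was also lower under the Ezh2-cKO label, at -0.09 against -0.05. The summed markers of cones went from 6.73% to 2.18%, of bipolar cells from 10.2% to 5.79%, of Müller glia from 10.5% to 4.25% and of vascular cells from 5.37% to 2.58%. Rgs5 gave 173 of the 220 FPKM of the vascular sum in wild-type Cd73N. Past the threshold, 3 of the 6 vascular markers were lower in wild-type Cd73P and 1 was higher. The part of Cd73N cells left in the Cd73P fraction in the values of the 22 members was not tested. The summed microglia markers stood at 20.1% and 18.8%, those of horizontal cells at 31.0% and 22.8%, those of ganglion cells at 86.5% and 91.8%, and those of amacrine cells at 276% and 151%, the last 3 from low sums. In wild-type Cd73P, Slc6a9 gave 24.1 of the 26.5 FPKM of the amacrine sum, and Nefh 7.20 of the 9.34 FPKM of the ganglion cell sum. Past the threshold, 1 amacrine marker was higher in Cd73P in each genotype, and 1 and 4 were lower. For ganglion cells 1 was higher in each, and 4 and 5 were lower. Beside these marker sums, Kcnab2 stood at 44.9% and 64.3%, Kcnc1 at 21.2% and 51.9%, Kcnip2 at 60.9% and 7.99%, Kcnh2 at 14.0% and 19.2% and Kcnip4 at 11.1% and 6.09%.

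**Figure D3:**
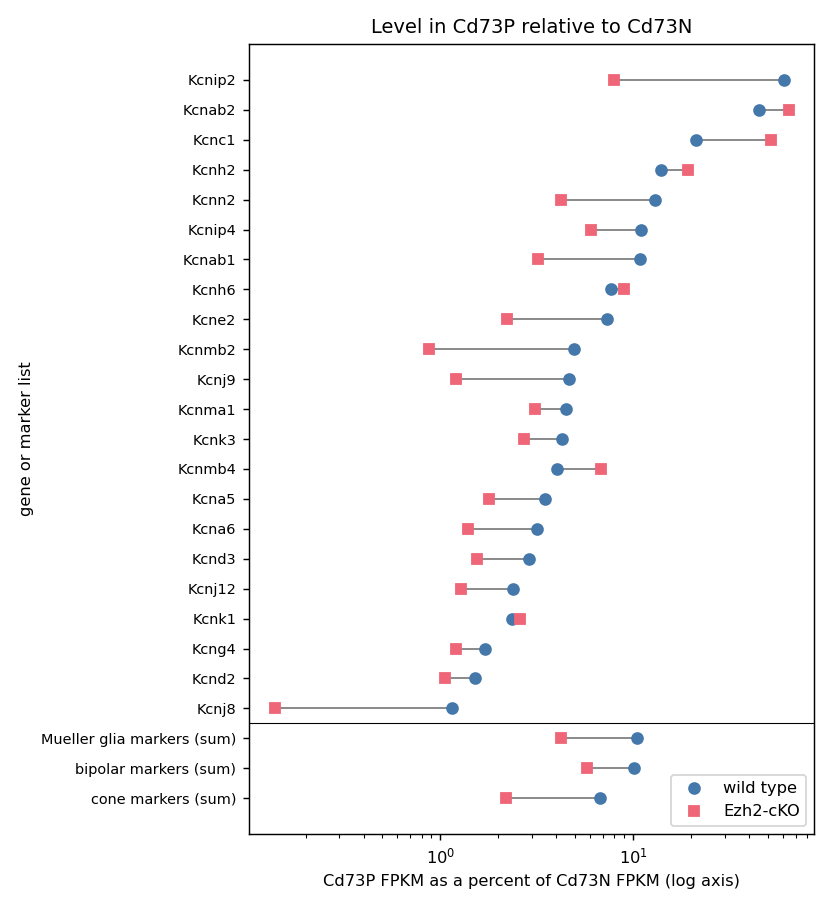
Cd73P FPKM as a percentage of Cd73N FPKM (log axis) in wild type (circles) and in the libraries labelled Ezh2-cKO (squares) for 22 named potassium channel genes and for the summed cone, bipolar and Müller glia markers. The squares lie to the left of the circles for 16 genes and for all 3 marker sums, and Kcnc1 and Kcnab2 are among the 6 genes with the opposite order.

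The genotypes were then compared within each fraction to find potassium channel genes that differed with the Ezh2-cKO label. In Cd73N, 6 of 88 members (6.82%) were higher in the library labelled Ezh2-cKO beside 7.18% of all genes, and 5 (5.68%) were lower beside 1.71%. In Cd73P, 2 members (2.27%) were higher beside 2.26% of all genes, and 8 (9.09%) were lower beside 2.39%. Thus the share of higher members was near that of all genes in each fraction, and the share of lower members was above it. In neither comparison did 70 members pass the threshold. The median log2 ratio was -0.0024 in Cd73N (0.0017 after median scaling and 0.036 after scaling by the FPKM sum) and -0.03 in Cd73P for the members and 0 in each for all genes. The comparisons of a genotype in the 2 fractions use separate libraries. No member was higher in both, 2 were lower in both (Kcnn2 and Kcnk3), and Kcnip2 was higher in Cd73N and lower in Cd73P. Of the 21832 genes compared, 92 were lower in both. The counts of genes higher in both, or of opposite direction, were not taken over all genes.

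**Figure D4:**
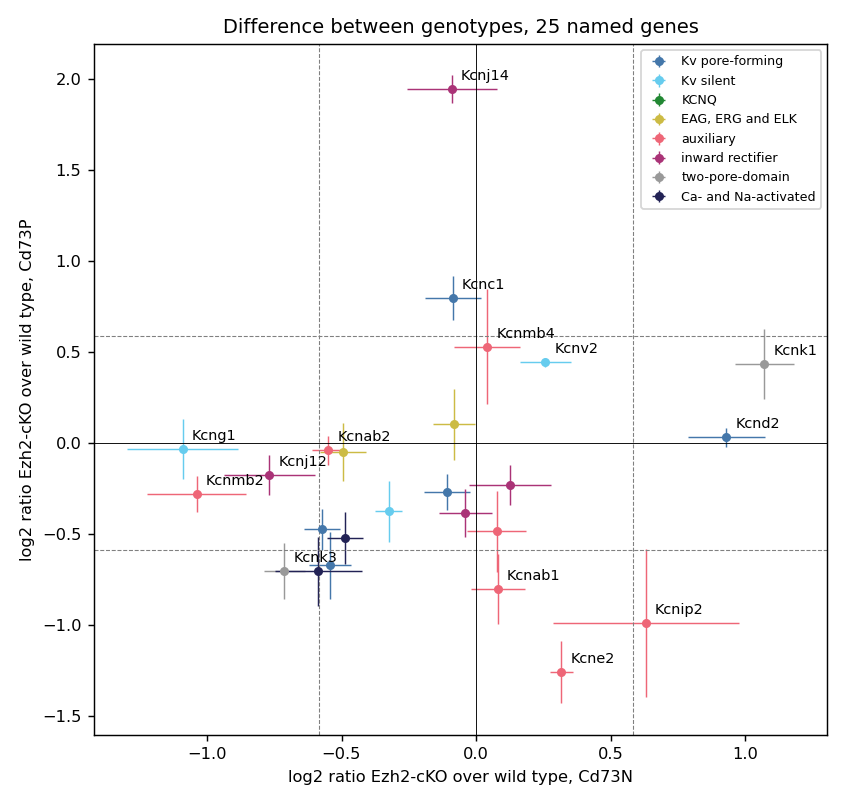
Log2 ratio of the library labelled Ezh2-cKO over wild type on the log2(FPKM + 1) scale in Cd73N (x axis) and Cd73P (y axis) for the 25 named potassium channel genes, coloured by role. Bars span the 95% counting interval and dashed lines mark the 1.5-fold threshold; Kcnj14 stands at 1.94 on the Cd73P axis and near 0 on the Cd73N axis, and Kcne2 and Kcnip2 lie at the lower right.

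Kcnj14 had the log2(FPKM + 1) ratio farthest from 0 between genotypes among the named members. By the plain ratio of FPKM some members of low level differed by more, such as Kcnj8 in Cd73P (0.0424 against 0.362 FPKM) and Kcng1 in Cd73N (0.453 against 2.09 FPKM). Kcnj14 was 3.93-fold higher in the Cd73P library labelled Ezh2-cKO, at 118 against 30.0 FPKM, a log2 ratio of 1.94 (SE 0.039), while its Cd73N values of 5.64 and 5.25 FPKM differed by a log2 ratio of -0.09 (SE 0.085). The cause of the Kcnj14 difference in the Cd73P library labelled Ezh2-cKO was not tested. Kcnv2, the other member of the rod fraction, was also higher there by value, with a log2 ratio of 0.44 (SE 0.012), but under the threshold, and in Cd73N its ratio was 0.26 (SE 0.048). The summed rod markers in the same Cd73P library were 1.38 times the wild-type sum. Of the 12 rod markers, 2 were higher past the threshold there and none was lower. Kcnc1 was the other member higher in Cd73P, at 3.07 against 1.35 FPKM, a log2 ratio of 0.80 (SE 0.062), beside -0.09 (SE 0.053) in Cd73N.

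In Cd73N the members higher in the library labelled Ezh2-cKO were Kcnk1, Kcnd2, Kcnf1, Kcna2, Kcnip2 and Kcnj13. Kcnk1 was at 31.5 against 14.4 FPKM, a log2 ratio of 1.07 (SE 0.056), and it was higher by value in Cd73P as well, at 0.813 against 0.342 FPKM. Kcnd2 had a log2 ratio of 0.93 (SE 0.073) and Kcnip2 of 0.63 (SE 0.176). The last 3 were of low level. Kcna2 was at 2.34 against 1.13 FPKM, Kcnf1, a silent subunit, at 2.22 against 1.03 FPKM, and Kcnj13, whose locus overlaps Gigyf2, at 0.72 against 0.13 FPKM. The summed Müller glia markers were 5.11 times wild type in this library, with all 10 markers higher and none at 0, and the part of this in the values of the potassium channel genes was not tested.

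The members lower in the same library were Kcng1, Kcnmb2, Kcnj12, Kcnk3 and Kcnn2. Kcng1, a silent subunit, was at 0.453 against 2.09 FPKM, a log2 ratio of -1.09 (SE 0.105), and Kcnmb2 had a ratio of -1.04 (SE 0.094). Kcnj12 was at 4.36 against 8.12 FPKM, a log2 ratio of -0.77 (SE 0.087). Kcnk3, a leak channel, was at 23.3 against 38.8 FPKM, a ratio of -0.71 (SE 0.039), and Kcnn2 had a ratio of -0.59 (SE 0.082), just past the threshold. Just short of it lay Kcnd3 (-0.57), Kcnab2 (-0.55), Kcna5 (-0.54), Kcnh2 (-0.50) and Kcnma1 (-0.49), which were all lower by value. After scaling by the FPKM sum, Kcnk3 and Kcnn2 no longer passed. The 10 bipolar markers, summed, were 0.57 times wild type in this library, with 7 lower and none at 0, and their part in these values was not tested.

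In Cd73P the lower members were Kcne2, Kcnip2, Kcnab1, Kcnk3, Kcnn2, Kcna5, Kcnip1 and Kcnh5. Kcne2 was at 5.67 against 15.0 FPKM, a log2 ratio of -1.26 (SE 0.088), whereas in Cd73N it was at 255 against 205 FPKM, a ratio of 0.32 (SE 0.021), beside summed cone markers at 1.40 times wild type. Kcnip2 was at 0.409 against 1.80 FPKM in Cd73P, a log2 ratio of -0.99 (SE 0.207), and Kcnab1 at 0.522 against 1.65 FPKM, a ratio of -0.80 (SE 0.098). The log2 ratio was -0.70 for both Kcnk3 and Kcnn2 and -0.67 for Kcna5. All 8 genes were higher in Cd73N by value in both genotypes, and their Cd73P levels in the library labelled Ezh2-cKO were under 1 FPKM except that of Kcne2. The summed cone markers in Cd73P were 0.455 times wild type, with 7 of 9 lower, and the bipolar markers 0.324 times, with 7 of 10 lower, and their part in these values was not tested.

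With a pseudocount of 5 in place of 1, the Cd73P differences of Kcnip2, Kcnab1, Kcna5, Kcnk3, Kcnn2, Kcnip1, Kcnh5 and Kcnc1 no longer passed the threshold, and neither did the Cd73N differences of Kcnd2, Kcnip2, Kcnf1, Kcna2, Kcnj13, Kcng1, Kcnmb2, Kcnj12 and Kcnn2. Those of Kcnj14 and Kcne2 in Cd73P passed under every alternative run. Reads were counted without regard to strand, and 5 named members overlap another gene (Kcnn2, Kcnd3, Kcnab1, Kcnmb4 and Kcnk3), whose reads cannot be told apart from theirs in the shared stretch. The same holds for Kcnip1, which overlaps Kcnmb1.

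Other genes of potassium handling were taken from a list of 21 that holds channel partners, cyclic nucleotide-gated cation channels, the sodium-potassium pump and cation-chloride cotransporters. In Cd73P, 1 was higher and 12 were lower in wild type, where 9.07% of all genes were higher and 27.9% lower. Under the Ezh2-cKO label 2 were higher and 15 lower, where 8.4% and 29.1% of all genes were. Abcc9, the sulfonylurea receptor that pairs with Kcnj8, paralleled it at 16.9 and 16.2 FPKM in Cd73N and 0.277 and 0.0434 FPKM in Cd73P. Between genotypes, 3 of the list were higher and 4 lower in Cd73N, where 7.18% and 1.71% of all genes were. None was higher and 2 were lower in Cd73P, where 2.26% and 2.39% of all genes were.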

How the data were processed

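Cd73N and Cd73P cells of mouse retina at postnatal day 12 were compared in 4 poly(A) RNA libraries, 1 per group, with groups taken from the sample titles. The authors sequenced 36-base single-end reads (bcl2fastq 1.8.4), aligned them to mm9 with TopHat 2.0.8b, allowing up to 50 hits per read, and deposited FPKM per RefSeq gene from Cufflinks 2.1.1, with lower and upper bounds and a status, for 23021 rows per library. FPKM was not scaled between libraries, so reads shared by similar genes and library composition can move a value. Total counts were not used here; depth inferred from the bounds was 1.00 to 1.17 times that of wild-type Cd73N over 6227 genes.

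FPKM of the 714 rows that share a symbol (251 symbols) was added up, and 726 symbols of small RNAs were not used. A comparison used only genes with OK status in both of its libraries. Differences were taken on log2(FPKM + 1) with a 1.5-fold threshold. The bounds were taken as 4 SE wide. For 9 named members some library's FPKM exceeded the upper bound given for it, and the width was then scaled to the value. They were Kcnv2, Kcnj14, Kcne2, Kcng4, Kcna5, Kcnh6, Kcnab2, Kcnj8 and Kcnk1. Kcne2 in Cd73N was at 205 and 255 FPKM against upper bounds of 186 and 231. The SEs of these genes thus rest in part on bounds that do not hold the value. Named members had FPKM of at least 5 in any library, or at least 1 with a 2-fold difference between genotypes on that scale; members named beside them and the promoter windows shown were chosen after their values were seen. The members and lists were chosen with earlier results of these data known. Alternatives were pseudocounts of 0.1 and 5, scaling by the median ratio or the FPKM sum, a filter at 1 FPKM, a 2-fold threshold, multi-row symbols left out, genes of every status and bounds that do not overlap. Several genes, among them 3 that met the symbol rule, are not reported here and enter no count of members. The calls were also run on simulated data with counting noise only, in which genes of high level were changed 2-fold. That run held no spread between animals and no change in genes of low level, so it cannot vouch for the calls on most members. Python 3.11.15, numpy 2.4.6, pandas 2.3.3 and matplotlib 3.10.9 were used.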

Additional observations from a re-analysis of the deposited data

Results flagged for a closer look

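Kcne2 and Kcnip2 differed between genotypes in opposite directions in the fractions, by more than their counting error in each. For Kcne2 that error rests on bounds that lie below its value in both Cd73N libraries and in wild-type Cd73P. Kcne2 had a log2 ratio of the library labelled Ezh2-cKO over wild type of 0.32 in Cd73N but of -1.26 in Cd73P, which differ by -1.57. Beside this the summed cone markers were 1.40 and 0.455 times wild type, in the same order of fractions. The summed vascular markers were 1.47 and 0.707 times and the amacrine markers, of low sum, 1.52 and 0.836 times. Of the 6 vascular markers only Kdr was past the threshold in Cd73N, and in Cd73P Kdr was higher while Cldn5 and Rgs5 were lower. Sums of rods, Müller glia, microglia, ganglion and horizontal cells were above wild type in both fractions, and that of bipolar cells below. In Cd73N, however, 6 of the 12 rod markers were lower past the threshold and none was higher. The part of any of these cells in the Kcne2 values was not tested. For Kcnip2 the ratios were 0.63 and -0.99, which differ by -1.62. With 1 library per group the difference between fractions was not tested for either gene.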

How the results depend on the processing

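No gene-level ratio of a named member turned its direction while past the threshold under any alternative run. With 0.1 in place of 1, the members' median log2 ratio of Cd73P over Cd73N was -1.62 for wild type and -1.72 under the Ezh2-cKO label, and with 5 it was -0.091 and -0.095. Among members with at least 1 FPKM in 1 of the 2 libraries it was -2.08 and -1.86, and all of these passed the filter through Cd73N. The members' median between genotypes in Cd73P was -0.15 with a pseudocount of 0.1. It was -0.35 with that filter, under which the 17 members kept all reached 1 FPKM in wild type. In Cd73N the members' median between genotypes turned to 0.0017 after median scaling and to 0.036 after scaling by the FPKM sum.

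With a pseudocount of 0.1, counts were 4 higher and 56 lower in Cd73P of wild type, 68 lower in Cd73P under the Ezh2-cKO label, 18 higher and 11 lower between genotypes in Cd73N, and for Cd73P 5 higher and 26 lower. With a pseudocount of 5, counts were 22 lower in Cd73P under the Ezh2-cKO label, 1 higher and 1 lower between genotypes in Cd73N, and for Cd73P the same. With a 2-fold threshold they were 1 higher and 2 lower for Cd73N, and for Cd73P 1 higher and 1 lower. Under the filter at 1 FPKM, 5 of 17 members (29.4%) were lower between genotypes in Cd73P, beside 4.54% of all genes so filtered. All 17 reached 1 FPKM in wild-type Cd73P, against 10 members in the Cd73P library labelled Ezh2-cKO. The filter thus favours members higher in wild type, and nothing is concluded from that share. Scaling by the FPKM sum left 3 lower in Cd73N. Counts over all genes were not taken under the other pseudocounts, the 2-fold threshold or the scalings, so those member counts have no background beside them. Median and sum scaling moved all log2 ratios of Cd73P over Cd73N, before the pseudocount, by 0.31 and 0.42 for wild type and by 0.27 and 0.22 under the Ezh2-cKO label, and those between genotypes by 0.077 and 0.15 in Cd73N and 0.038 and -0.046 in Cd73P. After both, Kcnn2 no longer passed between genotypes in Cd73N, and Kcnab2 no longer passed between fractions in the libraries labelled Ezh2-cKO. Kcnn1 then passed as higher in Cd73P in both genotypes, so that 3 members did. Kcnj13 no longer passed between genotypes in Cd73N after median scaling. The cause of these moves was not tested.

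No paired analysis was possible because each group holds 1 library. For the same reason leaving out replicates was not run. Values under about 1 FPKM, which hold most members in Cd73P, limit what can be read from ratios there.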

Other observations

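Some members lie near each other in the genome, and the following were looked at after their values were seen. Kcnj14 (53071837 to 53080117), Kcnj11 (53352493 to 53356134) and Kcnc1 (53651838 to 53694074) follow each other on chromosome 7 (mm9). Between genotypes in Cd73P their log2 ratios were 1.94, -0.44 and 0.80, and in Cd73N they were -0.09, -0.30 and -0.09. Kcnj11, the pore of the ATP-sensitive channel of neurons and beta cells, was at 0.798 FPKM in wild-type Cd73P and 0.326 FPKM in the Cd73P library labelled Ezh2-cKO. Abcc8, which pairs with it, was at 3.68 and 1.76 FPKM in Cd73N and 0.165 and 0.0842 FPKM in Cd73P.

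Atp1b3, a subunit of the sodium-potassium pump, was above wild type in the Cd73N library with the Ezh2-cKO label, by a log2 ratio of 1.26. Hcn3 and Hcn4, cation channels of other retinal neurons, were lower there by value, with ratios of -1.17 and -1.10. In this library the summed Müller glia markers were 5.11 times wild type and the bipolar markers 0.57 times, and their part in these values was not tested.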
